A study of Homo sapiens with 8 samples.

Results

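Inorganic phosphate enters and leaves human cells through a small set of plasma membrane transporters, and the transcripts of 6 of their genes are described here in cells labelled Caco-2 that did or did not carry Siglec-XII. SLC34A1, SLC34A2, SLC34A3, SLC20A1, SLC20A2 and XPR1 were found by symbol among the 63816 gene entries of the table, and each symbol stood on 1 entry. SLC34A2 heads the set because it was already known to be higher with Siglec-XII in these same libraries, so its values in that contrast are a description and carry no test. The other 5 genes were taken for their shared function, but with earlier results of these data known.

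The cells were labelled Caco-2, an established line from a human colorectal adenocarcinoma that the study describes as lacking Siglec-XII. The 4 control libraries carried the empty plasmid pcDNA3.1, and the 4 others carried pcDNA3.1 with human SIGLEC12, a gene for a Siglec receptor that in humans cannot bind sialic acid. Both populations were selected with G418 after transfection, and each group stems from its own selection, so a difference between the selected populations and an effect of Siglec-XII cannot be told apart. The sources differ on what the 4 libraries of a group are: the labels number them only, the design text speaks of fewer cultures per condition than that, and the methods speak of technical replicate libraries. The p-values may therefore measure technical spread alone. The design text calls the transfectants stable clones and does not give how many there were. Values are TPM, a share of all transcripts after scaling for transcript length, or log2(TPM + 1). Differences are Siglec-XII minus empty vector on the log2(TPM + 1) scale, which understates changes of low genes.

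The labels were checked first. SIGLEC12 stayed at or under 0.122 TPM in the empty vector libraries and lay between 1582 and 1734 TPM in those with Siglec-XII. The columns are scaled to a fixed total, so the read depth of each library is unknown from the table, and between 15513 and 15934 entries reached 1 TPM in each library. The labelled cell type had little support among its markers. Of 15 genes of intestinal epithelium, 11 were under 1 TPM in every library. FABP1, KRT20, PHGR1 and SI, genes of differentiated enterocytes and colonocytes, were listed at 0 throughout. Also among the 11, HNF4A reached at most 0.174 TPM, CDH17 0.333 TPM and CEACAM5 0.0733 TPM. The homeobox genes CDX1 (139 ± 7.98 TPM with the empty vector, SD, n = 4) and CDX2 (37.3 ± 3.46 TPM) were present. Of 18 trophoblast genes, 12 reached 1 TPM, among them HSD3B1 (345 ± 21.9 TPM with the empty vector) and SIGLEC6 (134 ± 11.6 TPM), while LEP and the CGB genes stayed under 1 TPM. Summed over each list, intestinal markers ran from 163 to 186 TPM with the empty vector and from 190 to 215 TPM with Siglec-XII. Trophoblast markers ran from 1995 to 2058 and from 1910 to 1955 TPM, so neither sum overlapped between groups. Groups did not overlap for 10.8% of the single entries tested. CDX1 and CDX2 made up most of the intestinal sum. In the trophoblast list, XAGE2 (803 to 730 TPM, without overlap) and GATA3 (402 to 359 TPM) had lower means with Siglec-XII. Others had higher means, such as GATA2 (129.5 to 148 TPM, without overlap). The sums therefore do not speak for each list as a whole. The part of these marker levels in the results below was not tested.

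As background, the SLC34 and SLC20 proteins bring phosphate into the cell by coupling it to sodium, and XPR1 is the known phosphate exporter of animal cells. SLC34A1 and SLC34A3 reabsorb phosphate in the kidney, and SLC34A2, also called NaPi-IIb, absorbs dietary phosphate in the small intestine and clears it from lung alveoli. SLC20A1 and SLC20A2, also called PiT-1 and PiT-2, supply most cell types and serve as receptors for some retroviruses. Loss of SLC20A2 or XPR1 function causes brain calcification, and loss of SLC34A2 function causes calcium phosphate stones in the lung.

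The sequences before the annotated starts of the members whose groups did not overlap are shown because these are the genes the comparison turns on. They are RefSeq sequences of build GRCh38.p14, 250 bases each on the plus strand, 5′ to 3′, ending at the base before the start. For SLC34A2 RefSeq gives a first and a second start, with windows at chr4:25655601-25655850 and chr4:25656214-25656463. Only RefSeq starts were taken, and which start these cells use was not examined. The SLC20A1 window is chr2:112645689-112645938. Capitals mark matches on either strand to the TATA-type letters TATATA or TATAA, the GC box GGGCGG, the E-box CACGTG, the cAMP response element TGACGTCA, or the AP-1 site TGANTCA. The interferon-stimulated response element was searched as a pair of GAAA blocks with any 2 bases between them. Overlapping matches join into 1 run of capitals.
SLC34A2, first start: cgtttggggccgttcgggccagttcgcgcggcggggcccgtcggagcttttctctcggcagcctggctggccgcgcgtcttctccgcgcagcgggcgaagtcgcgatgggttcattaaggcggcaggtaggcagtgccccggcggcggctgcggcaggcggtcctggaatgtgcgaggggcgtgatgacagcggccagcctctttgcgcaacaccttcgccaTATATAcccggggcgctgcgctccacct
SLC34A2, second start: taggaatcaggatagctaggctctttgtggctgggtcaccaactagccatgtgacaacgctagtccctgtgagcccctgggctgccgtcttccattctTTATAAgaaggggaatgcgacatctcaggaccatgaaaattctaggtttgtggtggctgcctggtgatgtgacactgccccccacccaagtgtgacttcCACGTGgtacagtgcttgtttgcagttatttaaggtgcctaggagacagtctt
SLC20A1: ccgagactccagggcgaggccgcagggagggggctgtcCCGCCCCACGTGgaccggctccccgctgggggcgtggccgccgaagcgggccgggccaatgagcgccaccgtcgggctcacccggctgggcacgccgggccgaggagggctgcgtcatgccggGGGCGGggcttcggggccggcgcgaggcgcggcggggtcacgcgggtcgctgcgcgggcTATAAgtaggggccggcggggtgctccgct

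The first SLC34A2 window held TATATA at position -28, counted back from the start, and no other of these motifs. TATATA occurs in 3.73% of the 35116 RefSeq windows of this length. The SLC20A1 window held TATAA at position -30 (in 18.9% of windows), GGGCGG on 2 occasions (42.6%) and CACGTG (6.34%). The second SLC34A2 window held TATAA on both strands in overlapping letters and CACGTG. The letters of the cAMP response element (in 1.65% of windows), the AP-1 site (6.57%) and the interferon-stimulated response element (3.02%) were in none of the 3 windows. G and C made up 69.6% of the first SLC34A2 window and 51.2% of the second, against a median of 58.0% over all windows. A match is a run of letters and does not show that a factor binds.

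SLC34A2 (ENSG00000157765) lies on the plus strand of chromosome 4, 25649633 to 25680370 in GRCh37, and the entry names a 13-exon transcript among 7 annotated for this protein-coding gene. With the empty vector it stood at 3.84, 3.997, 4.997 and 3.83 TPM in replicates 1 to 4, and with Siglec-XII at 7.88, 7.01, 8.19 and 7.62 TPM. Every Siglec-XII library was above every empty vector library, and the highest control was replicate 3. The group means were 4.17 ± 0.559 and 7.67 ± 0.501 TPM (SD, n = 4), a ratio of 1.84. On the log2 scale the means were 2.36 ± 0.15 and 3.11 ± 0.08 (SD, n = 4), a difference of 0.75 with a standard error of 0.10 and a 95% interval from 0.52 to 0.98. These values chose the gene and are given with no test. Of the 15590 entries tested, 0.648% were called at an adjusted p under 0.05 (0.34% higher and 0.308% lower with Siglec-XII), and 9.17% were higher with Siglec-XII without overlap, and nothing is read from SLC34A2 against those shares. In bulk RNA, more cells with the transcript and more transcript per cell cannot be told apart. Its level remained modest, above 26.9% of the tested entries with the empty vector and above 37.3% with Siglec-XII. Markers of lung alveolar type 2 cells, in which SLC34A2 is abundant, were mostly low: 8 of 10 were under 1 TPM in every library, SFTPA1 was listed at 0, and SFTPC, the defining surfactant gene, reached at most 0.452 TPM. The list's summed level, nearly all of it from the lysosomal protein gene LAMP3, was 50.8 to 71.8 TPM with the empty vector and 55.6 to 67.2 TPM with Siglec-XII.

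**Figure D1:**
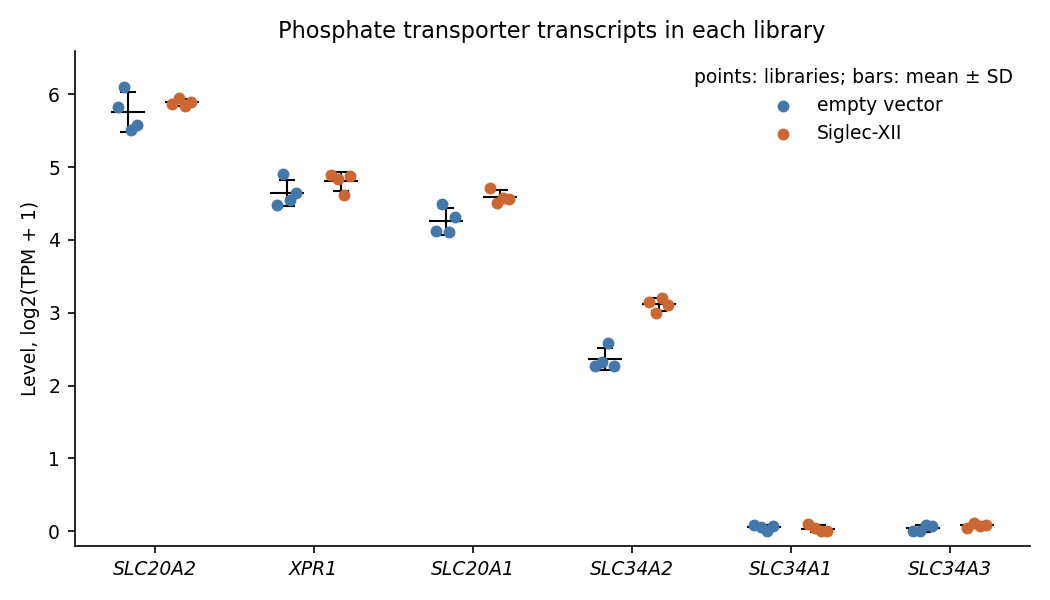
Levels of the 6 transporter genes in log2(TPM + 1), with 1 point per library and bars for the mean and SD of 4 libraries per group. SLC34A2 and SLC20A1 are the genes whose groups do not overlap, and SLC34A1 and SLC34A3 lie near 0 in both groups. Over all tested entries, 10.8% had groups that do not overlap.

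The kidney members of the same family were barely present. SLC34A1 (ENSG00000131183, chromosome 5, 176806236 to 176825849 in GRCh37) reached at most 0.0712 TPM and was listed at 0 in 3 of 8 libraries. SLC34A3 (ENSG00000198569, chromosome 9, 140125209 to 140131007) reached at most 0.0758 TPM and was listed at 0 in 2 of 8. Neither passed the filter of 1 TPM in at least 4 libraries, so neither was tested and no fold is given. SLC34A2 was thus the type II transporter that could be measured here, and 4 of the 6 genes passed the filter.

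SLC20A2 and SLC20A1, the broadly used importers, were higher than SLC34A2 in all 8 libraries. SLC20A2 (ENSG00000168575, chromosome 8, minus strand, 42273993 to 42397069 in GRCh37) had 56.0, 67.9, 44.5 and 46.9 TPM with the empty vector and 57.2, 60.9, 56.6 and 58.8 TPM with Siglec-XII. The control libraries spread on both sides of the Siglec-XII libraries, with replicate 2 highest and replicate 3 lowest. The difference of 0.13 had a 95% interval from -0.13 to 0.40 (limma, adjusted p = 0.603), so a modest shift in either direction remains within the error. Part of the antisense neighbour SMIM19 lies over this gene, and it reached at most 8.84 TPM. Whether the counting used strand is not given in the sources used here.

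SLC20A1 (ENSG00000144136, chromosome 2, plus strand, 113403516 to 113421402 in GRCh37) had 16.4, 21.6, 16.2 and 18.9 TPM with the empty vector and 25.3, 21.8, 22.9 and 22.6 TPM with Siglec-XII. The groups did not overlap, but only by the narrow gap between empty vector replicate 2 at 21.6 TPM and Siglec-XII replicate 2 at 21.8 TPM. Non-overlap in either direction was seen for 10.8% of all tested entries. The means were 18.3 ± 2.53 and 23.2 ± 1.53 TPM (SD, n = 4), a ratio of 1.27. The log2 difference was 0.33 with a standard error of 0.10 and a 95% interval from 0.12 to 0.55, and it did not pass the threshold (limma, adjusted p = 0.149). Its unadjusted p was under 0.05, as for 16.5% of all entries (13.9% with the higher level in Siglec-XII). Leaving out empty vector replicate 2, the control with the highest SLC20A1 level, gave 0.41 (limma, adjusted p = 0.0614), the largest difference with 1 library left out. Without that library, 19.4% of all entries had an unadjusted p under 0.05 and 1.02% were called. The smallest SLC20A1 difference, without empty vector replicate 3, was 0.28 (limma, adjusted p = 0.289).

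XPR1, the exporter (ENSG00000143324, chromosome 1, plus strand, 180601158 to 180859415 in GRCh37), had 21.4, 28.9, 22.4 and 24.1 TPM with the empty vector and 28.7, 27.5, 23.5 and 28.4 TPM with Siglec-XII. The highest control again was replicate 2, above all 4 Siglec-XII libraries. The difference of 0.16 had a 95% interval from -0.07 to 0.38 (limma, adjusted p = 0.463). Among the 3 tested members other than SLC34A2, 0 passed an adjusted p of 0.05 in limma and 1, SLC20A1, had an unadjusted p under 0.05, beside 0.648% and 16.5% of all entries, and so few genes cannot be set apart from that background. Empty vector replicate 2 held the highest control level of all 3, and without it the differences were 0.41 for SLC20A1, 0.25 for SLC20A2 and 0.24 for XPR1, with adjusted p-values of 0.0614, 0.152 and 0.170. Without empty vector replicate 3 the differences were 0.28 for SLC20A1 and 0.05 for SLC20A2. Without replicate 4 that of SLC20A2 was 0.08, and without replicate 1 that of XPR1 was 0.11.

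The order of the levels was the same in all 8 libraries, with SLC20A2 first, then XPR1, SLC20A1 and SLC34A2. SLC20A2 stood clear, since its lowest library, at 44.5 TPM, was above the highest XPR1 value of 28.9 TPM. XPR1 and SLC20A1 were neighbours whose ranges overlapped across libraries in both groups, and within single libraries XPR1 was higher by 0.33 to 0.44 in the controls and by 0.04 to 0.32 with Siglec-XII on the log2 scale. SLC34A2 was below SLC20A1 by 1.90 ± 0.29 in the controls and by 1.48 ± 0.08 with Siglec-XII (SD, n = 4). SLC34A1 and SLC34A3 were at the bottom and could not be ordered.

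Summed over the 5 importers, transcripts came to 76.3, 93.5, 65.7 and 69.8 TPM with the empty vector and to 90.5, 89.8, 87.7 and 89.1 TPM with Siglec-XII. Empty vector replicate 2 exceeded all Siglec-XII libraries, so the sums overlapped. SLC20A2 made up 70.2% ± 3.24 of this sum in the controls and 65.4% ± 1.999 with Siglec-XII (SD, n = 4), SLC20A1 24.1% ± 2.42 and 25.9% ± 1.57, and SLC34A2 5.60% ± 1.43 and 8.60% ± 0.630. The share of SLC34A2 ran from 4.27% to 7.61% in the controls and from 7.80% to 9.33% with Siglec-XII, without overlap, which follows in part from the choice of the gene. XPR1 stood at 0.319 ± 0.0300 of the importer sum in the controls and 0.302 ± 0.0236 with Siglec-XII (SD, n = 4), and these ratios overlapped.

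**Figure D2:**
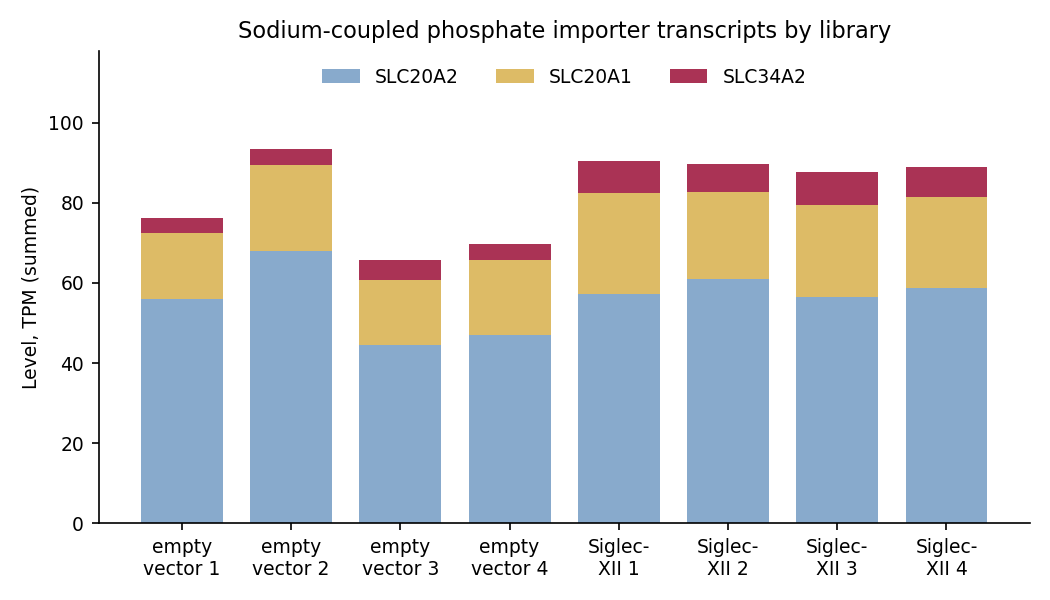
Stacked TPM of the sodium-coupled importers SLC20A2, SLC20A1 and SLC34A2 in each library, with the kidney members left out because they were under 0.1 TPM. SLC20A2 is the largest part of every bar, and empty vector replicate 2 has the tallest bar.

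The members were set beside all other entries. The median difference over all tested entries was 0.07, and it rose with the length of the gene's longest annotated transcript, from 0.06 for 4335 protein-coding genes of 2000 to under 4000 nt to 0.09 for 5758 genes of 4000 nt or more. The longest transcripts of SLC20A1 and SLC20A2 (3297 and 3752 nt) fall in the former class and those of SLC34A2 and XPR1 (4115 and 8484 nt) in the latter. The transcript that the SLC34A2 entry names is shorter, at 2439 nt, so the class of this gene rests on the use of its longest transcript. With this length trend removed, SLC34A2 had a difference of 0.68, SLC20A1 of 0.27, SLC20A2 of 0.06 and XPR1 of 0.05. With quantile normalization the median of all entries was 0.01, and the differences were 0.70 for SLC34A2, 0.26 for SLC20A1, 0.08 for SLC20A2 and 0.08 for XPR1. SLC20A2 and XPR1 thus had differences above the median of all entries on each of these scales, none past the threshold.

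**Figure D3:**
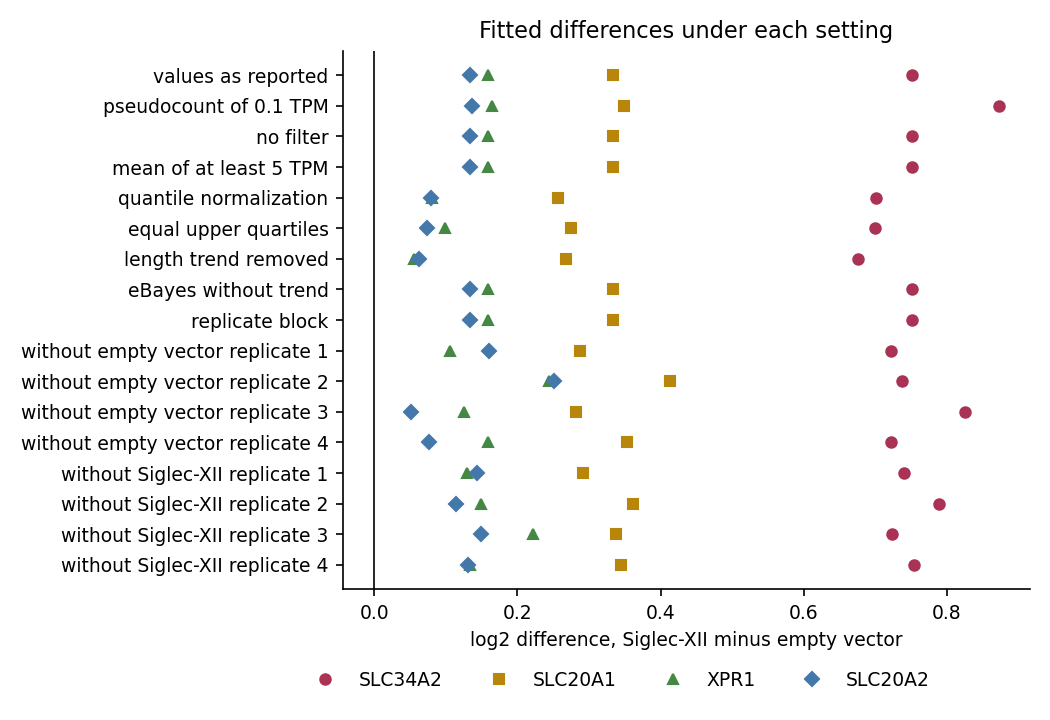
Fitted log2 difference of the 4 measured transporters under each processing setting, 1 symbol per gene, with settings down the axis. SLC34A2 stays between 0.68 and 0.87, and SLC20A1 between 0.26 and 0.41, to the right of SLC20A2 and XPR1 in every setting.

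The genes around SLC34A2 on its chromosome were examined for a like difference. Of 24 entries that start within 500 kb of the gene, 8 passed the filter, 5 with a positive and 3 with a negative difference. In limma 0 of these had an adjusted p under 0.05, beside 0.648% of all entries, and 0 an unadjusted p under 0.05, beside 16.5%, so counts of 0 among 8 genes set them little apart from other genes. The nearest tested gene, SEL1L3, which encodes a membrane protein, had 3.21 TPM in the controls and 3.33 with Siglec-XII, a difference of 0.05 with a standard error of 0.13. ANAPC4, a subunit of the anaphase-promoting complex on the other side, had 26.1 and 26.4 TPM, a difference of 0.01 with a standard error of 0.08. RBPJ, the transcription factor of Notch signalling, had 39.1 and 37.5 TPM and a difference of -0.06 with a standard error of 0.07.

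**Figure D4:**
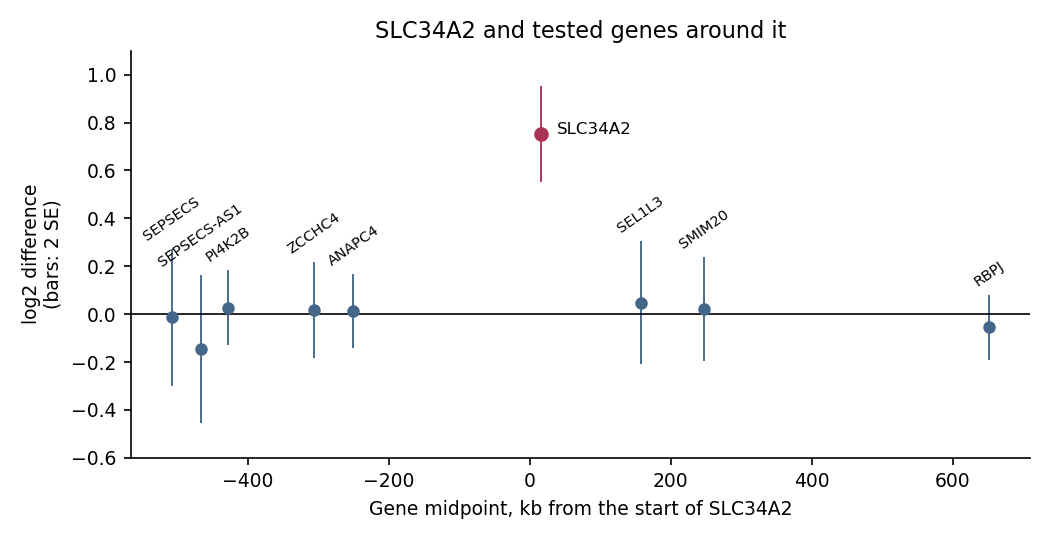
Log2 difference of SLC34A2 and of the 8 tested genes around it against the distance of each gene's midpoint from the start of SLC34A2 in kb, with bars of 2 standard errors. The neighbours lie between -0.15 and 0.05, and SLC34A2 at 0.75.

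The 5 tested entries whose centred profile over the 8 libraries was nearest to that of SLC34A2 were found by root-mean-square distance on the log2 scale. They were NBPF26 at 0.13, the long noncoding RNA AC095055.1 at 0.13, the stress response gene GADD45B at 0.13, the receptor tyrosine kinase-like gene ROR1 at 0.13 and the ETS family repressor gene ETV3 at 0.15. Each was higher with Siglec-XII, by 0.63, 0.70, 0.63, 0.58 and 0.54 in that order. The measure picks genes with a like group difference, so these differences are a description. NBPF26 belongs to a family of near-identical copies whose reads may be divided, and its value is uncertain.

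The wider handling of phosphate was read from 6 lists of 92 genes, of which 59 were tested. The lists, too, were chosen with earlier results of these data known. In limma 0 of the 59 passed an adjusted p of 0.05, and 12 (20.3%) had an unadjusted p under 0.05, all 12 higher with Siglec-XII, beside 16.5% of all entries in either direction and 13.9% higher. The difference was above 0 for 50 of the 59 (84.7%), against 68.1% of all entries, and the median was 0.09 against 0.07. This lean depended on scaling: 66.1% were above 0 with quantile normalization, 64.4% with equal upper quartiles and 57.6% with the length trend removed. Over all entries these shares were 52.9%, 53.5% and 50.6%. Groups did not overlap for 8 of the 59 list genes, all 8 higher with Siglec-XII, beside 9.17% of all entries. The genes named below as without overlap are among these 8.

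The list of phosphate carriers of mitochondria and other organelles also takes in the SLC17 family, whose members are not all such carriers. Of its 14 genes, 9 were tested, SLC17A5 among them, and 8 had a positive difference. SLC25A3, which carries phosphate into mitochondria for ATP synthesis, was the most abundant at 624 ± 56.5 TPM with the empty vector and 662 ± 47.5 TPM with Siglec-XII (SD, n = 4). SLC25A25, an ATP-magnesium/phosphate carrier, had 26.1 ± 2.59 and 33.8 ± 0.802 TPM without overlap, a difference of 0.36 (limma, adjusted p = 0.0719). It passed the threshold under 2 of 16 alternatives, at a limma adjusted p of 0.0234 without empty vector replicate 2 and 0.0462 among entries with a mean of at least 5 TPM. Under the other 14 it did not pass, with limma adjusted p-values up to 0.181. The SLC17 genes SLC17A1, SLC17A2 and SLC17A3 were listed at 0 in all libraries.

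Inositol pyrophosphates bind the SPX domain of XPR1 and tie phosphate export to cellular supply. Of 13 genes of their metabolism and of the XPR1 partner KIDINS220, 12 were tested and 10 had a positive difference. IP6K1, a kinase that makes these molecules, had 29.2 ± 4.04 TPM with the empty vector and 37.3 ± 1.75 TPM with Siglec-XII (SD, n = 4), a difference of 0.35 without overlap (limma, adjusted p = 0.126). Its relative IP6K2 had 72.3 ± 5.25 and 72.8 ± 4.42 TPM. NUDT4, which removes the added phosphates, had a difference of 0.15 (limma, adjusted p = 0.165), and KIDINS220 one of 0.23 (limma, adjusted p = 0.261). None of these passed the threshold.

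Of 9 genes listed as scaffold and trafficking partners of type II transporters, 8 were tested, all with a positive difference and none past the threshold. Ezrin, EZR, which links the membrane to actin, had 588 ± 40.5 and 656 ± 26.2 TPM (SD, n = 4), a difference of 0.16 (limma, adjusted p = 0.211). The PDZ scaffold gene SLC9A3R1 had 142 ± 22.6 and 144 ± 2.05 TPM, and PDZK1 had 1.33 ± 0.470 and 2.05 ± 0.663 TPM (limma, adjusted p = 0.373).

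Hormones of phosphate balance and their receptors gave 11 tested genes of 25, with 9 above 0. The FGF23 co-receptor gene KL, its relative KLB, FGF23 itself, the vitamin D receptor VDR and its target CYP24A1 were all under 1 TPM in every library. FGFR2 was the highest of the FGF receptor genes FGFR1 to FGFR4 at 199 ± 8.06 and 203 ± 9.91 TPM (SD, n = 4), and STC2, a stanniocalcin gene, had 110 ± 8.01 and 113 ± 5.71 TPM. RXRA, a partner of nuclear receptors, had 27.7 ± 2.03 and 33.3 ± 2.30 TPM without overlap, a difference of 0.26 (limma, adjusted p = 0.141). Among the genes of phosphate release and pyrophosphate, 12 of 18 were tested and 9 were above 0. The intestinal alkaline phosphatase ALPI stayed at or under 0.115 TPM, whereas the placental enzyme ALPP had 98.8 ± 6.70 and 115 ± 11.4 TPM (limma, adjusted p = 0.230). Its close paralog ALPG had 32.4 ± 3.30 and 41.7 ± 4.78 TPM (SD, n = 4), a difference of 0.35 (limma, adjusted p = 0.137), and reads of these near-identical genes may be divided between them.

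The sodium gradient that drives the importers is kept by the sodium pump, and 7 of 13 genes of this list were tested with 6 above 0. ATP1B3, which encodes a beta subunit of the pump, had 142 ± 5.51 and 159 ± 1.85 TPM (SD, n = 4). Its groups did not overlap, and the difference of 0.16 did not pass the threshold (limma, adjusted p = 0.115). The exchanger gene SLC9A3 of the apical membrane had 0.828 ± 0.168 and 0.979 ± 0.233 TPM and was not tested.

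**Figure D5:**
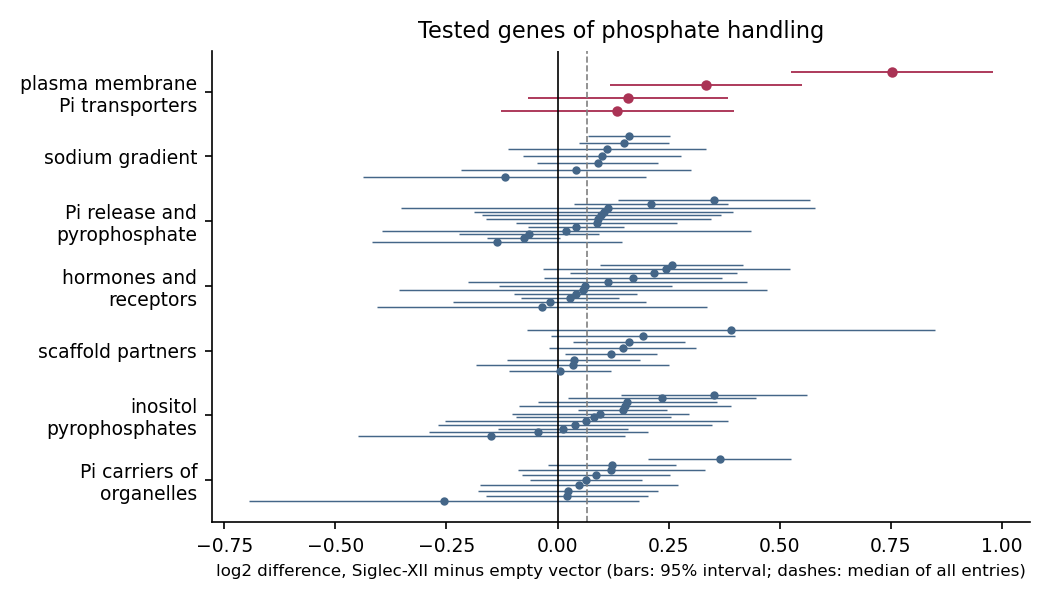
Log2 difference with its 95% interval for the 59 tested genes of the 6 lists and for the 4 measured transporters. Points are grouped by role, with a dashed line at the median of all entries. The interval of SLC34A2 is a description with no test, since its values chose the gene. Most points lie within 0.25 of 0, and SLC34A2 at 0.75 is the farthest to the right.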

How the data were processed

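RNA-seq was analysed from 8 libraries labelled Caco-2, 4 per group. Per the labels, libraries were made from total RNA with a strand-specific kit that removes rRNA, while the methods name an mRNA kit. The authors quantified reads with kallisto (0.45.0 in the submitters' processing notes) against hg19 and deposited log2(TPM + 1). The columns returned to the linear scale sum to 1000000. The contrast was fitted by limma 3.58.1 (R 4.3.3) with eBayes trend on the 15590 entries at 1 TPM or above in at least 4 libraries, and p-values were adjusted across all of them by Benjamini-Hochberg. The fit was tested on simulated data. The study's count test was not used because the table holds no counts. Positions and lengths came from GENCODE lifted to GRCh37, in which 86.9% of entries had their ID. The older symbol ALPPL2 was matched to ALPG through RefSeq. Named genes were the members, list genes, markers, genes starting within 500 kb and the 5 nearest profiles. Members and lists were chosen with earlier results of these data known. Alternatives were another pseudocount, filters, scalings, no trend, a replicate block and each library left out. One gene of the lists is counted but not reported here. Figures used matplotlib 3.10.9.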

Additional observations from a re-analysis of the deposited data

Results flagged for a closer look

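The log2 level of SLC34A2 in the empty vector libraries had 1 value apart from the others. Replicate 3 stood at 2.58 and the other 3 between 2.27 and 2.32, and the gap to the nearest library was 0.843 of the group's range, above Dixon's 95% critical value for 4 samples. It lay on the side of the Siglec-XII libraries, of which the lowest was 3.001, and without it the difference was 0.83 in place of 0.75. Of 16 groups of 4 values examined in this way 1 was marked, and chance marks about 1 in 20.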

How the results depend on the processing

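SLC20A1, SLC20A2 and XPR1 kept a positive difference under all 16 alternatives and stayed short of an adjusted p of 0.05 in each, with limma adjusted p-values from 0.0614 to 0.338, 0.152 to 0.872 and 0.170 to 0.844. With 1 library left out, the difference ran from 0.28 to 0.41 for SLC20A1, 0.05 to 0.25 for SLC20A2 and 0.11 to 0.24 for XPR1. That of SLC34A2, whose direction its choice fixed, ran from 0.72 to 0.83. The count of all entries past the threshold, 101, was 51 with no filter, 65 with the length trend removed, 54 without the mean-variance trend and 49 to 159 with 1 library left out, highest without empty vector replicate 2. The count for the phosphate lists was 1, SLC25A25, with a mean of at least 5 TPM, and 0 to 1 with 1 library left out. The groups share replicate numbers, but the deviations of same-numbered libraries correlated at only -0.074 to 0.059 across entries, and not every library correlated best with its own number. The replicate block gave 69 entries in all and 0 of the lists, left the differences at 0.75, 0.33, 0.13 and 0.16, and changed no call among the 3 tested transporters and the lists, while the count over all entries fell from 101. SLC34A1 and SLC34A3, under 0.1 TPM in every library, were given no fold and were not followed through the alternatives. Read depth is unknown, so the error of low values such as those of SLC34A2 has no counting interval.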

Other observations

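SLC20A2 had an SD of 10.6 TPM over the 4 empty vector libraries and of 1.94 TPM over the 4 Siglec-XII libraries, and the importer sum, of which it is the largest part, had an SD of 12.3 and 1.19 TPM. The SDs of the other measured members lay closer together, at 2.53 and 1.53 TPM for SLC20A1, 3.32 and 2.39 TPM for XPR1 and 0.559 and 0.501 TPM for SLC34A2. The difference in spread was not tested. Markers of fibroblasts, a cell type the culture should lack, came to a summed level of 70.8 to 87.3 TPM with the empty vector and 83.3 to 89.2 TPM with Siglec-XII. Of their 10 genes 5 reached 1 TPM, led by the collagen gene COL1A1 at 46.1 ± 3.28 and 55.3 ± 4.45 TPM (SD, n = 4), while THY1 was listed at 0. These values were not tested against the transporter levels.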
